A study of Mus musculus with 6 samples.

Results

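The chemokine receptors read here were *Cx3cr1*, *Ccr1*, *Ccr2*, *Ccr6*, *Ccrl2*, *Cxcr3*, *Cxcr4* and *Ackr3*, measured in microglia with 1 or no working copy of the transcription factor gene *Bhlhe41*. They were taken as every non-control probe whose transcript accession matched one of these names in RefSeq, which gave 10 probes for 8 genes, out of 56601 probes tested and 23462 genes that could be named. *Cxcr4* and *Cx3cr1* had 2 probes each and the other receptors 1 each. The samples were 3 arrays labelled Ctrl, from Bhlhe41 dTomato-Cre/+ mice (B41HET), and 3 labelled KO, from Bhlhe41 dTomato-Cre/dTomato-Cre mice (B41KO). The mice were 3 months old. The Methods give 10 to 15 mice pooled for each sample, while the labels speak of 3 mice per genotype. Both genotypes carry the reporter and Cre at the *Bhlhe41* locus, so the controls have lost 1 copy too, and the allele is present in every cell of the animal rather than in microglia alone. The cells were enriched on Percoll and sorted from the brain as CD45 low, CD11b+ and Cx3cr1+, which means that one of the receptors was itself a sort marker. *Bhlhe41* itself, on its brighter probe, was at 7.95, 7.87 and 7.65 (log2 signal) under the B41HET label and at 8.56, 7.84 and 8.21 under the B41KO label, and neither it (log2 fold change 0.38, adjusted p = 0.330) nor the other probe (0.33, adjusted p = 0.204) was lower in B41KO. The brighter probe was at 0.20 without B41KO replicate 1 and at 0.74 with the row of the slide as a block. The inserted cassette lies before the start codon, carries a polyA sequence and is described as ending translation of Bhlhe41. What these probes read from that allele was not tested, so nothing about the labels is drawn from them. B41HET and B41KO below stand for the samples so labelled.

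Chemokine receptors are cell-surface receptors with a bundle of membrane-spanning helices. Most of them couple to inhibitory G proteins and steer cells along gradients of small secreted chemokines. A minority, called atypical receptors, bind a chemokine and remove or present it without G protein signalling. In the brain, Cx3cr1 on microglia reads fractalkine (Cx3cl1), which neurons make. Ccr2 is best known on inflammatory monocytes, Cxcr3 on T and NK cells and Ccr6 on lymphocytes and dendritic cells. Cxcr4 and Ackr3 share the ligand Cxcl12, and Cxcr4 is known for holding neutrophils and progenitors in the bone marrow.

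*Cxcr4*, *Ccr6* and *Ccrl2* were lower in B41KO than in B41HET microglia, while *Cx3cr1*, *Cxcr3*, *Ackr3* and *Ccr2* did not pass the test and *Ccr1* was not well above background in any sample. Calls were made with limma at a Benjamini-Hochberg adjusted p, over all probes, of at most 0.05 together with a log2 fold change of at least 0.5 in size. The values below are quantile-normalized log2 signals of single probes, and they compare the genotypes on 1 probe, not one gene with another. By probe, 4 of the 10 were called, all of them lower, where 5.09% of all probes tested were called, 3.38% lower and 1.72% higher. By gene, with the probe of the highest mean signal standing for it, 3 of 8 were called lower, where 5.49% of all genes were called, 4.05% lower, and 0 were called higher, where 1.44% of all genes were. At an unadjusted p under 0.05 the counts were 5 lower and 1 higher, where 14.5% and 10.5% of all genes were, so that 1 of 8 higher is near the share of all genes. The median log2 fold change of the 8 receptors was -0.39, or -0.46 over the 7 without *Ccr1*, and that of all genes was 0.01. The groups did not overlap for 6 of 8 receptors, against 32.1% of all genes, and for 7 of the 10 probes, against 29.6% of all probes.

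**Figure D1:**
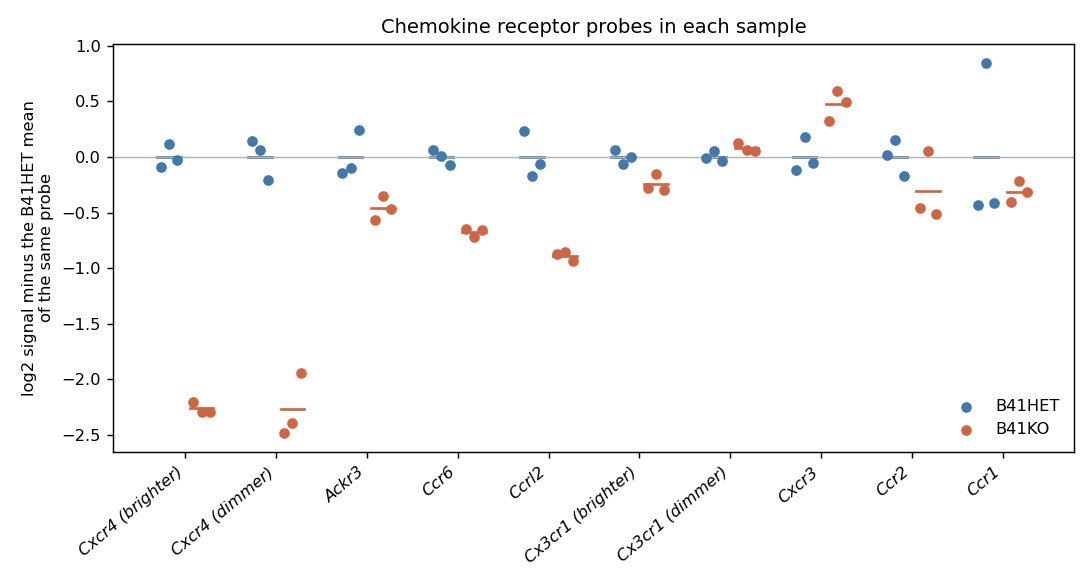
Log2 signal of each receptor probe in each sample, minus the mean of the 3 B41HET samples of the same probe (vertical axis), with a point per sample and a bar at the mean of each genotype. The B41KO samples lie 2.26 below the B41HET mean for the brighter *Cxcr4* probe and 0.47 above it for *Cxcr3*, and 1 B41HET sample of *Ccr1* stands apart from the other samples of that probe.

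The regions upstream of the 3 receptors called lower are shown because Bhlhe41 is a basic helix-loop-helix repressor that recognises E-boxes, above all CACGTG. RefSeq (GRCm38.p6) gave 11 windows of 250 bases before a transcript start for the 8 receptors. The windows below are those of the outermost start of each gene, written 5′ to 3′ on the strand of the gene, and capitals mark matches to the general E-box CANNTG.
Cxcr4, chr1:128592300-128592549, minus strand: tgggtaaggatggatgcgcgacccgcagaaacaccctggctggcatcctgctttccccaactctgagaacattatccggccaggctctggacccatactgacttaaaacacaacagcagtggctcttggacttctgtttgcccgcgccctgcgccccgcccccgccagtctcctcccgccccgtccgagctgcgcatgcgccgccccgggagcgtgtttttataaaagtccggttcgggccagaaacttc
Ccr6, chr17:8235793-8236042, plus strand: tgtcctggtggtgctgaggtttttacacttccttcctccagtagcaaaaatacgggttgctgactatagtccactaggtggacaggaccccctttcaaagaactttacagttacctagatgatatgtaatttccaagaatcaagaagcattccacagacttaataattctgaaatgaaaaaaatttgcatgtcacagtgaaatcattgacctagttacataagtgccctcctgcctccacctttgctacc
Ccrl2, chr9:111057519-111057768, minus strand: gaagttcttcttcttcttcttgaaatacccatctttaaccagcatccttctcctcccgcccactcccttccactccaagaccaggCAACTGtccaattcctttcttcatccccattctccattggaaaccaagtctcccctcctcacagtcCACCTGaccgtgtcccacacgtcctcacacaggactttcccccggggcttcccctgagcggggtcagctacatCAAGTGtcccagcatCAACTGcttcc
CACGTG was found in 0 of the 11 windows, and 6.02% of all 32851 windows of that length hold it. Both motifs read the same on both strands, and CACGTG is 1 form of CANNTG. The *Ccrl2* window has 4 matches to CANNTG, which begin 165, 99, 26 and 11 bases before the start. The windows of *Cxcr4* and *Ccr6* shown here have none, and the second *Ccr6* window has 2. Of the 11 receptor windows, 8 hold CANNTG, and 66.2% of all windows do. These are matches of letters in a window, and no binding was measured in these samples. E-boxes farther upstream were not searched, and the paper reports Bhlhe41 bound to sites beyond the reach of such a window. The absence of CACGTG here therefore does not bear on binding farther upstream.

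*Cxcr4*, the signalling receptor for Cxcl12, had the largest difference of the 8 receptors. Its brighter probe gave 7.85, 8.06 and 7.91 in B41HET and 5.74, 5.65 and 5.65 in B41KO. The groups did not overlap, and the lowest B41HET sample lay 2.12 above the highest B41KO sample. This was a log2 fold change of -2.26 (standard error 0.08, 95% confidence interval -2.47 to -2.05, adjusted p = 0.000678), so that B41HET was 4.79-fold higher. The dimmer probe gave 5.58, 5.51 and 5.23 in B41HET and 2.96, 3.05 and 3.50 in B41KO, where it was well above background on 2 of 3 arrays. These groups did not overlap either. The log2 fold change of the dimmer probe was -2.27 (standard error 0.18, 95% confidence interval -2.71 to -1.83, adjusted p = 0.00468), close to that of the brighter probe. With normexp background correction the difference was smaller, -1.44 for the brighter and -0.57 for the dimmer probe, and both were still called. An exact permutation test over samples gave p = 0.1 (two-sided) for each probe, the smallest that 3 samples against 3 allow.

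*Ackr3*, the atypical receptor that takes up Cxcl12, was not called. It gave 4.35, 4.40 and 4.74 in B41HET and 3.93, 4.15 and 4.02 in B41KO. All B41KO samples lay below all B41HET samples, with a gap of 0.20. With a log2 fold change of -0.46 (standard error 0.13, 95% confidence interval -0.79 to -0.14, adjusted p = 0.104), the interval reached to either side of the fold threshold. With normexp background correction the difference was smaller, -0.13.

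*Ccr6*, the receptor for Ccl20, was lower in B41KO by a smaller amount. The probe gave 10.25, 10.20 and 10.12 in B41HET and 9.55, 9.47 and 9.54 in B41KO. The groups were 0.58 apart at their closest, while the samples of each genotype lay close together. The log2 fold change was -0.67 (standard error 0.07, 95% confidence interval -0.85 to -0.50, adjusted p = 0.00971), with B41HET 1.60-fold higher. *Ccr6* is also on a list of genes that the study chose with these samples and with public RNA sequencing of microglia lacking both *Bhlhe40* and *Bhlhe41*. Since the choice used these samples, the place of *Ccr6* on that list is not independent of the values above. The call was lost without B41HET replicate 2 (log2 fold change -0.67, adjusted p = 0.0559). It was also lost when the row of the slide was fitted as a block, which leaves 1 B41KO array in the row of the B41HET arrays (-0.65, adjusted p = 0.0985).

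*Ccrl2*, which binds the chemoattractant chemerin and presents it to other receptors without known signalling of its own, was lower too. Its probe gave 7.65, 7.25 and 7.36 in B41HET and 6.55, 6.57 and 6.48 in B41KO. The 3 B41KO samples lay close together, and the lowest B41HET sample was 0.68 above the highest of them. Its log2 fold change was -0.89 (standard error 0.12, 95% confidence interval -1.18 to -0.59, adjusted p = 0.0177), or 1.85-fold higher in B41HET. The call was lost with the slide row as a block (-0.87, adjusted p = 0.138), without B41HET replicate 3 and without any 1 of the B41KO replicates, where the adjusted p reached 0.0645, and the log2 fold change stayed between -0.97 and -0.77 in all 6 leave-one-out fits.

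*Cx3cr1*, the fractalkine receptor, was not called on either probe. The brighter probe gave 15.071, 14.939 and 15.004 in B41HET and 14.728, 14.848 and 14.703 in B41KO. Its groups did not overlap, but the gap was 0.09. The log2 fold change was -0.25 (standard error 0.08, 95% confidence interval -0.44 to -0.05, adjusted p = 0.137). The dimmer probe gave 13.29, 13.35 and 13.26 in B41HET and 13.43, 13.37 and 13.35 in B41KO, a log2 fold change of 0.08 (95% confidence interval -0.09 to 0.25, adjusted p = 0.554). Averaged over both probes the log2 fold change was -0.08 (adjusted p = 0.536).

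*Cxcr3*, the receptor for the interferon-induced chemokines Cxcl9 and Cxcl10, was the single receptor above its B41HET samples on every B41KO array when read by its brightest probe, and it did not pass the test. It gave 5.66, 5.96 and 5.73 in B41HET and 6.11, 6.38 and 6.28 in B41KO. The groups did not overlap. Their difference was a log2 fold change of 0.47 (standard error 0.12, 95% confidence interval 0.18 to 0.76, adjusted p = 0.0770). With normexp background correction it was smaller, 0.21 (adjusted p = 0.185).

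*Ccr2*, the receptor for Ccl2, overlapped between the genotypes. It gave 4.33, 4.47 and 4.14 in B41HET and 3.86, 4.37 and 3.80 in B41KO. B41KO replicate 2 lay among the B41HET samples and the other two lay below them. A log2 fold change of -0.30 was fitted (95% confidence interval -0.75 to 0.15, adjusted p = 0.395). In the leave-one-out fits it ranged from -0.48, without B41KO replicate 2, to -0.20, without B41KO replicate 3. It was smaller, -0.11, with normexp background correction and -0.17 with a shift to the 75th percentile. *Ccr1*, a receptor for Ccl3, Ccl5 and related chemokines, was at 0.54, 1.82 and 0.55 in B41HET and at 0.56, 0.75 and 0.65 in B41KO. None of the 6 arrays showed it well above background, so no fold is read from it.

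**Figure D2:**
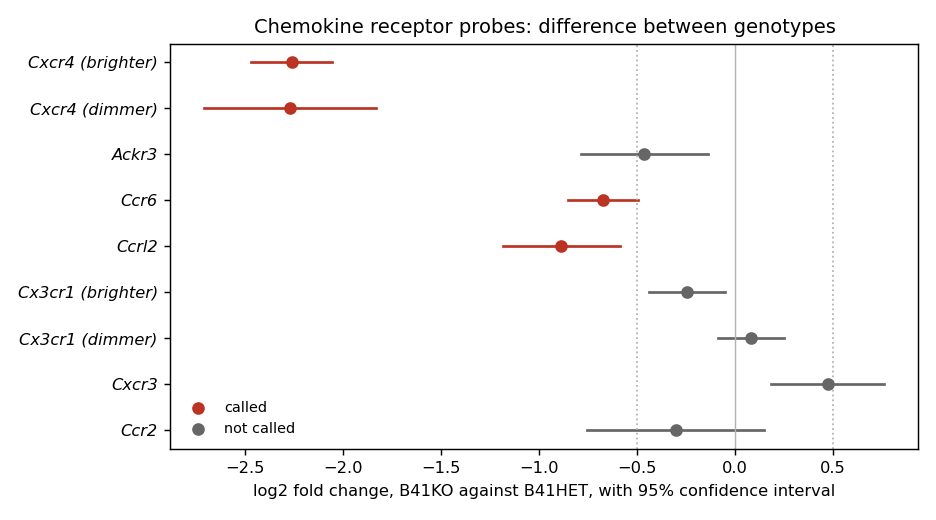
Log2 fold change of B41KO against B41HET for the 9 receptor probes that were well above background on at least 1 array, with lines for the 95% confidence interval and dotted lines at the fold threshold of 0.5. Both *Cxcr4* probes lie near -2.3, *Ccr6* and *Ccrl2* are at -0.67 and -0.89, and *Cxcr3* is at 0.47.

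Among 16 other chemokine receptors, 0 were called lower and 2 higher in limma (1 and 4 at an unadjusted p under 0.05), with a median log2 fold change of 0.04. Of all genes, 4.05% were called lower and 1.44% higher (14.5% and 10.5% at an unadjusted p under 0.05). *Ccr1l1*, a relative of *Ccr1*, rose by 0.53 (adjusted p = 0.0463). *Cxcr5*, the receptor for Cxcl13, was not well above background in B41HET and was at least 1.46-fold higher in B41KO (adjusted p = 0.0282). The calls of *Ccr1l1* and *Cxcr5* were each lost whichever of the 6 samples was left out, and with normexp background correction, where their log2 fold changes were 0.26 and 0.08. *Cxcr2*, a neutrophil receptor for Cxcl1 and its relatives, was at a log2 fold change of -0.09 and did not pass the test (adjusted p = 0.687). Nor did *Ccr7*, which guides dendritic cells to lymph nodes, at -0.94 (adjusted p = 0.0651).

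*Ccr1*, *Ccr2*, *Ccrl2* and *Cx3cr1* lie on the same chromosome, and *Xcr1*, *Ccr1*, *Ccr1l1*, *Ccr3* and *Ccr2* follow one another there with 0 other protein-coding genes between them in the RefSeq annotation. *Ccr1l1* was called higher, *Ccr3* had a log2 fold change of 0.07 and *Ccr2* one of -0.30, and the probes of *Xcr1* and *Ccr1* were not well above background.

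The ligands of the 8 receptors numbered 16, of which 15 had a probe, and 3 were called lower and 0 higher (6 and 2 at an unadjusted p under 0.05), with a median log2 fold change of -0.09. Of all genes, 4.05% were called lower and 1.44% higher (14.5% and 10.5% at an unadjusted p under 0.05). The 3 ligands called lower were *Ccl7* and *Ccl12*, ligands of Ccr2 that attract monocytes, and *Ccl8*, a related CC chemokine. *Ccl7* gave 7.32, 7.66 and 7.55 in B41HET and 6.36, 6.43 and 6.19 in B41KO, so that it fell by 1.18 on the log2 scale (adjusted p = 0.00893), and it was called in all 6 leave-one-out fits but not with the slide row as a block (-1.15, adjusted p = 0.0899). *Ccl8* fell by 1.08 (adjusted p = 0.0223) and *Ccl12* by 0.77 (adjusted p = 0.0102) on the same scale. The call of *Ccl8* was lost without any 1 of the B41HET replicates or B41KO replicate 2 (adjusted p up to 0.0876), and that of *Ccl12* without B41HET replicate 2 (adjusted p = 0.0539), while the leave-one-out log2 fold changes stayed between -1.22 and -0.94 and between -0.81 and -0.72. Both calls were also lost with the slide row as a block (-0.82, adjusted p = 0.144, and -0.67, adjusted p = 0.0978). With normexp background correction *Ccl8* was at -0.30 and lost its call, and *Ccl7* was at -0.76 and kept it. *Ccl2*, the main ligand of Ccr2, lay higher in B41KO by 0.18 (adjusted p = 0.187). *Cxcl12*, the ligand shared by Cxcr4 and Ackr3, was at 5.87, 5.92 and 6.04 in B41HET and at 5.99, 5.98 and 5.64 in B41KO (adjusted p = 0.768), and *Cx3cl1* had a log2 fold change of -0.09 (adjusted p = 0.580). *Cxcl9*, a ligand of Cxcr3, was well above background on all 3 B41HET arrays and on 0 B41KO arrays, at least 1.16-fold lower in B41KO, and did not pass the test (adjusted p = 0.0584). *Ccl20*, the ligand of Ccr6, was not well above background in any sample. *Rarres2*, which encodes chemerin, the ligand of Ccrl2, had a log2 fold change of -0.55 and did not pass the test (adjusted p = 0.0770).

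Of 23 genes that couple chemokine receptors to the cell or switch them off, 1 was called lower and 0 higher (9 and 1 at an unadjusted p under 0.05), with a median log2 fold change of -0.16. Of all genes, 4.05% were called lower and 1.44% higher (14.5% and 10.5% at an unadjusted p under 0.05). Called lower, 1 of 23 is near the share of all genes. *Rgs1*, a GTPase activator that shortens chemokine signalling, gave 10.08, 9.91 and 9.95 in B41HET and 9.21, 9.38 and 9.28 in B41KO, a log2 fold change of -0.69 (adjusted p = 0.0134). That call was lost without any 1 of the B41HET replicates and without B41KO replicate 1 (adjusted p up to 0.0560), with log2 fold changes between -0.74 and -0.64 in all 6 leave-one-out fits. The slide row as a block ended it too (-0.77, adjusted p = 0.0859). *Gnai2*, the main inhibitory G protein subunit of leukocytes, had a log2 fold change of 0.10 (adjusted p = 0.627) on its brightest probe and of -0.49 on the other, short of the fold threshold (adjusted p = 0.0325). *Arrb2*, a beta-arrestin that ends receptor signalling, had one of 0.06 (adjusted p = 0.677) on its brightest probe and of -0.55 on the second of its 3 probes (adjusted p = 0.0152).

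Markers of several other cell types were lower in B41KO as well. Beside the counts in this paragraph and the next, 4.05% of all genes were called lower and 1.44% higher (14.5% and 10.5% at an unadjusted p under 0.05). The 12 microglial markers were well above background on all 6 arrays, and 1 of them, *Fcrls*, was called (log2 fold change -0.76, adjusted p = 0.00584). Of 10 neutrophil markers, 9 were called lower, with a median log2 fold change of -2.50 that lay near the -2.26 and -2.27 of *Cxcr4*. All 10 were well above background on every array, and their summed signal was 31200 to 35150 in B41HET and 5779 to 6311 in B41KO. Of 8 monocyte markers 4 were called lower, with a median of -1.14, while their summed signal overlapped (81090 to 87510 against 78190 to 92270) because *Ms4a4c*, at a log2 fold change of 0.03, made up most of it. Of 9 border macrophage markers 4 were called lower, with a summed signal of 2528 to 2718 in B41HET and 1754 to 1932 in B41KO. Their median log2 fold change was -1.03, with 8 lower and 0 higher at an unadjusted p under 0.05.

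Further lists cover cell types in which Ccr6, Cxcr3 and Ccr7 are best known, and cells of the vessel wall and glia. Of 7 dendritic cell markers 2 were called lower (summed signal 1582 to 1717 against 1440 to 1614), *Clec10a* at -1.92 and *Cd209a* at -1.74 on the log2 scale, while *Batf3*, at 0.03, made up most of the sum. Of 8 B cell markers 1 was called lower, *Cd79a* (1332 to 1528 against 1422 to 1451), and of 10 T and NK cell markers 0 (577.7 to 614.5 against 609.7 to 638.2), with 1 lower and 1 higher at an unadjusted p under 0.05. Of 8 endothelial markers 2 were called lower (1218 to 1325 against 469.3 to 515.7), *Ly6c1* and *Pecam1*, which leukocytes are also known to express, while *Cldn5*, *Kdr* and *Slco1a4* were at log2 fold changes of -0.13, -0.01 and 0.04 and the other 3 were not well above background. Of 6 astrocyte markers 0 were called (1812 to 1883 against 2000 to 2224), with 1 lower and 0 higher at an unadjusted p under 0.05. Of 10 genes induced when cells are handled ex vivo, such as *Fos* and *Atf3*, 5 were called lower (90240 to 95360 against 59100 to 62180). Their median log2 fold change was -0.53, with 9 lower and 0 higher at an unadjusted p under 0.05. The part of these markers in the receptor values was not tested. In bulk samples, fewer cells of a type and less RNA per cell cannot be told apart.

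**Figure D3:**
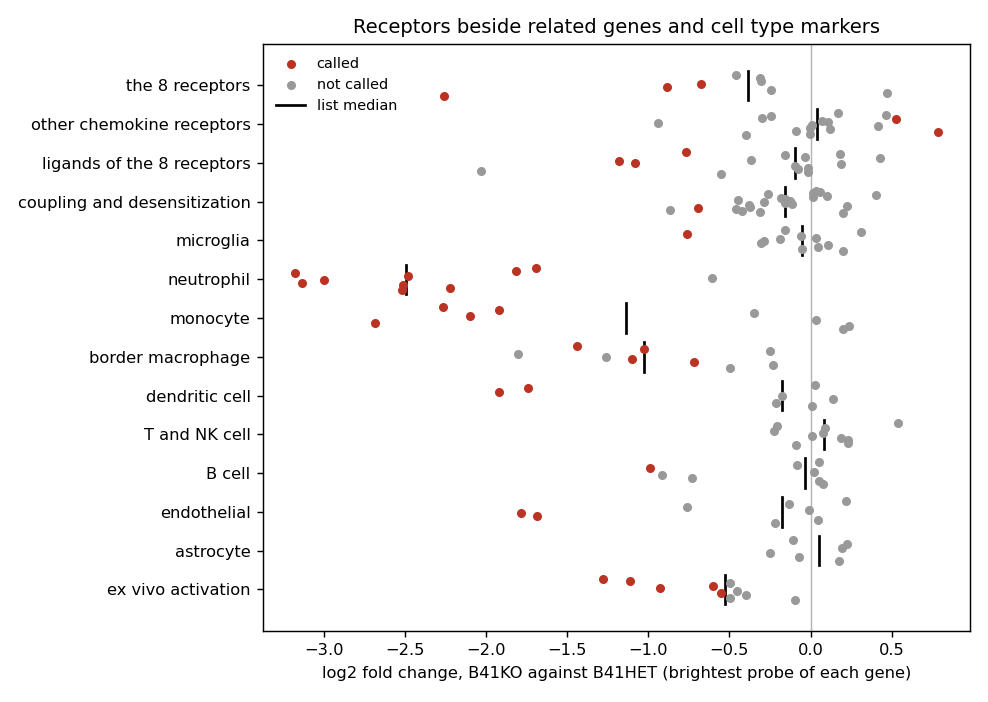
Log2 fold change of B41KO against B41HET on the brightest probe of each gene (horizontal axis), with a point per gene, red where called, and a black bar at the median of each list. The 8 receptors have a median of -0.39, between the microglial markers at -0.06 and the neutrophil markers at -2.50, and genes not well above background on any array are included.

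The genes whose values followed each called receptor most closely were found among 17215 genes well above background on all 6 arrays, by the root mean square difference over the 6 mean-centred log2 values. For the brighter *Cxcr4* probe they were *Chil3*, a chitinase-like protein of myeloid cells, *Serpinb1a*, an inhibitor of neutrophil proteases, and *Cd177*, a neutrophil surface protein, at differences of 0.08, 0.10 and 0.12. *Chil3* is one of the monocyte markers used above. For the dimmer *Cxcr4* probe they were *S100a8*, *Pglyrp1* and *H2-Aa*, at 0.19 each, and *S100a8* is one of the neutrophil markers. For *Ccr6* they were *Rnf123*, *Rgs3* and *Fto*, at 0.02 to 0.03. For *Ccrl2* they were *Gadd45b*, *Gna11* and *Slc5a2*, at 0.04 to 0.07. With 6 samples in 2 groups, genes with a like fold change fall close together by this measure.

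**Figure D4:**
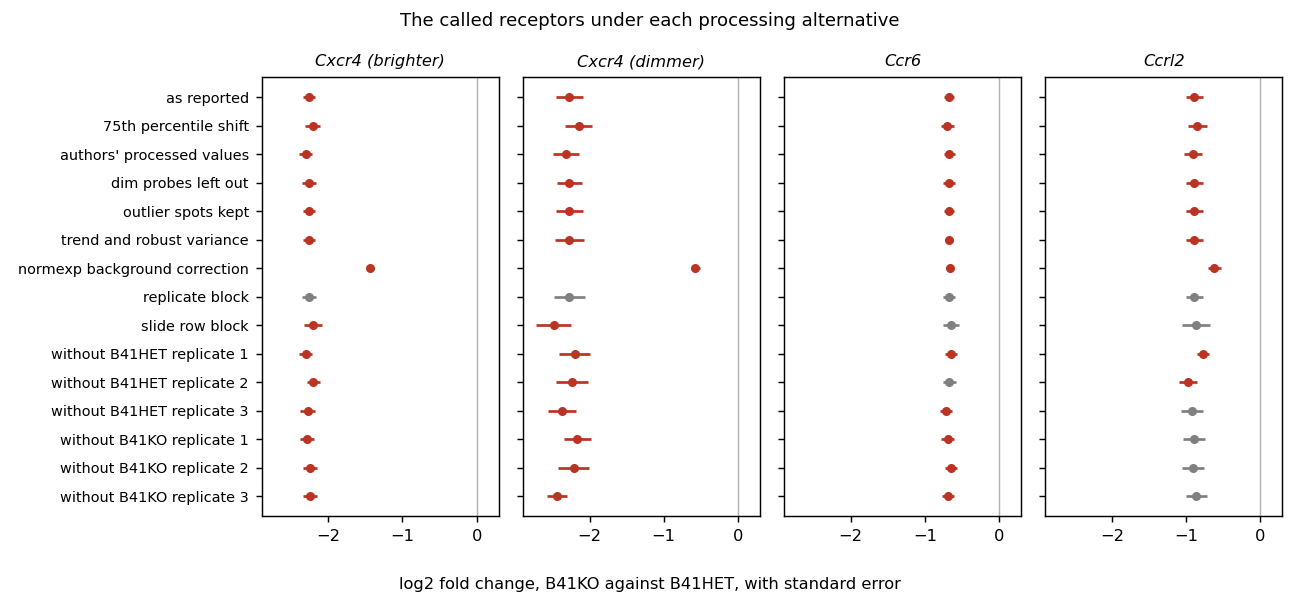
Log2 fold change with its standard error for the 4 called receptor probes under each processing alternative, red where called and grey where not. All points lie below 0, both *Cxcr4* probes lose the call only with the replicate block, and *Ccr6* and *Ccrl2* lose it with either block and with some samples left out.

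All 6 arrays lay on 1 slide, with between 70.1% and 75.5% of probes well above background and 0 saturated spots, and log2 signals correlated at 0.989 to 0.993 within and 0.985 to 0.989 between genotypes across probes, which are not independent replicates. Precision is limited by the number of arrays. Row 1 held the B41HET arrays and B41KO replicate 1, and row 2 held the other two B41KO arrays. When the row was added as a block, so that B41KO was compared through that 1 array, both *Cxcr4* probes were called (-2.21, adjusted p = 0.0181, and -2.48, adjusted p = 0.0383), and no other receptor was.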

How the data were processed

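RNA from sorted microglia was hybridised in 1 colour (Cy3) to 6 Agilent mouse arrays. The authors deposited the scanner output of Feature Extraction 11.5.1.1, whose intensity values have the background subtracted array by array, without normalization across arrays. They also deposited processed values, read as quantile-normalized log2 intensity because the columns share their quantiles and rank probes as the arrays do.

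Control spots were left out, keeping 59305 of 62976 spots. Log2 processed signals were quantile normalized over the 6 arrays, the 95 to 136 spots flagged as outliers on an array were then masked there, and spots of a probe were averaged. Genotypes were compared with limma 3.58.1 in R 4.3.3 (data.table, version 1.17.8), with genotype as the only term and Benjamini-Hochberg adjustment over 56601 probes. Quantile normalization, limma and the threshold follow the Methods. Accessions without versions named 33767 of 56605 probes (59.7%) through RefSeq on GRCm38.p6. The array design uses another build, so no probe positions are given. Plots were made in Python 3.11.15 with matplotlib 3.10.9. The fit was tested on simulated data.

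The members, the lists and the genes to name were chosen with earlier results of these data known. Named genes were all receptors, up to 6 called genes per list with up to 2 well-known ones not called, the 3 genes most like each called receptor, and *Bhlhe41*. *Ccr3*, *Xcr1*, *Cx3cl1*, *Ccl20*, *Cxcl9*, *Rarres2* and *Slco1a4* were named after their values were seen. A probe was well above background as Feature Extraction flags it. A lower bound on a fold used, per array, the higher of the probe's own value and the lowest signal of probes well above background. The labels call the samples biological replicates. One listed receptor is not reported here, and the counts leave it out.

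Alternatives were a shift to the 75th percentile, the authors' processed values, a filter on dim probes, outlier spots kept, trend and robust variance, normexp with an offset of 50, replicate number or slide row as a block, omission of each sample in turn, no fold threshold, and averaging all probes of a gene.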

Additional observations from a re-analysis of the deposited data

How the results depend on the processing

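The direction of every receptor probe was kept under every alternative except for *Ccr1*, not well above background, whose fitted difference, from which nothing is read, was 0.11 without B41HET replicate 2. Both *Cxcr4* probes were called under every alternative but the replicate block. The deviations of same-numbered samples correlated at 0.13, -0.01 and 0.17, and for 2 of the 3 numbers the best match was the own number. Since replicate 2 showed no such relation, the numbers were not taken to pair the samples, although the data leave a pairing possible. With the replicate block, 42 of 56601 probes were called in place of 2883, and 0 receptor probes, 0 of the 8 receptors, 0 other receptors, 0 ligands and 0 coupling genes were called in limma (6, 5, 5, 7 and 9 at an unadjusted p under 0.05), with 7 cell type and state genes called in place of 28. The log2 fold changes stayed at -2.26 and -2.27 for *Cxcr4* (adjusted p = 0.0526 and 0.0729), -0.67 for *Ccr6* (0.0784) and -0.89 for *Ccrl2* (0.0854). With the slide row as a block, 448 probes were called, with 2 receptor probes, 1 receptor, 0 other receptors, 0 ligands and 0 coupling genes (3, 5 and 7 of the last 3 groups at an unadjusted p under 0.05) and 16 cell type and state genes, and the log2 fold changes were -0.65 for *Ccr6* and -0.87 for *Ccrl2*.

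With 1 sample left out, 3 to 4 receptor probes, 2 to 3 receptors, 0 to 1 other receptors, 1 to 3 ligands, 0 to 1 coupling genes and 22 to 24 cell type and state genes were called. The log2 fold changes then ranged from -0.71 to -0.64 for *Ccr6*, from -0.97 to -0.77 for *Ccrl2*, and from -0.53 to 0.11 for *Ccr1*. The other receptors called numbered 0 with normexp (4 at an unadjusted p under 0.05), 1 with trend and robust variance and 1 with all probes of a gene averaged. With normexp the dim probes not called were at -0.13 for *Ackr3*, 0.21 for *Cxcr3* and -0.11 for *Ccr2* (-0.17 with the shift to the 75th percentile), and 2 ligands were called. The ligands called numbered 5 with the filter on dim probes and 5 with trend and robust variance, and the coupling genes 5 without a fold threshold. Over all probes, 1501 were called with normexp and 796 to 1524 with 1 sample left out. The shift to the 75th percentile moved the median log2 fold change of all probes from 0.01 to 0.13 and ended no receptor's call. The causes of these differences were not tested. Signal limits *Ccr1*, and the dimmer *Cxcr4* probe in B41KO.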
